A study of Mus musculus with 7 samples.

Results

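The cluster of miR-322, miR-503, miR-351, miR-542 and miR-450 is a group of mouse microRNA (miRNA) hairpins that lie side by side on the X chromosome. Its members were taken by name as the miR-322, miR-503, miR-351 and miR-542 arms, both 5p and 3p, together with miR-450a-5p and miR-450b-5p. All 10 names were found, out of 1908 miRNA rows in each of the 2 deposited tables. No measured value entered the rule itself. The cluster was, however, picked with earlier results of these libraries known. The libraries are small RNA sequencing of cells sorted by fluorescence from papain-dissociated embryonic mouse spinal cord. At E10.5 there were 2 libraries of GFP-positive motoneurons from Hb9::gfp embryos and 2 libraries of GFP-negative non-motoneuron cells from the same line. At E12.5 there was 1 library each of Hb9::gfp motoneurons, of V2a interneurons from Chx10::cre;Rosa26::LSL::tdTomato embryos and of V3 interneurons from Sim1::cre;Rosa26::LSL::tdTomato embryos. All E10.5 groups thus carry the Hb9::gfp transgene, whereas the E12.5 V2a and V3 groups carry a Cre driver and a tdTomato reporter in its place. The motoneuron groups hold the cells in which the Hb9 promoter drives GFP, and the interneuron groups hold cells with present or past activity of the Chx10 or Sim1 driver. The GFP-negative group is whatever else was in the dissociated tissue. It is a mixed group and not a single cell type. Nothing in the labels ties the 2 libraries of a group to different litters or different sorts, and each p-value therefore reflects library-to-library spread that could be technical.

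MiRNAs are short RNAs that lower the stability and translation of mRNAs paired with their seed, the bases near the 5′ end. Each hairpin can give one mature RNA from its 5p arm and one from its 3p arm, and usually one arm accumulates. Hairpins of one cluster can be cut from a single primary transcript, yet the mature RNAs can still differ in level because processing and decay differ. miR-322 is the mouse counterpart of human miR-424. Its 5p arm and miR-503-5p carry the core seed of the miR-15/16 family, which is known for repressing cyclins and other regulators of the cell cycle, and in mouse myoblasts the pair has been linked to withdrawal from the cycle. miR-351-5p carries the seed of miR-125, the vertebrate relative of worm lin-4, and miR-125 is abundant in neural tissue. miR-542-3p has been studied mostly in human cells, where it represses survivin. The roles of the miR-450 arms are less settled.

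The mature sequences, taken from RefSeq (mouse GRCm38.p6), are shown for all arms because the seed decides which other miRNAs each one resembles. They are written 5′ to 3′ with the seed, bases 2 to 8, in capitals.
mmu-miR-322-5p: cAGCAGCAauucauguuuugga
mmu-miR-503-5p: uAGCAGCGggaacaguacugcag
mmu-miR-322-3p: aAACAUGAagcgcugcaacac
mmu-miR-503-3p: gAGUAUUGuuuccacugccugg
mmu-miR-351-5p: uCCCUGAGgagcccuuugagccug
mmu-miR-351-3p: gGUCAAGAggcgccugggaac
mmu-miR-542-3p: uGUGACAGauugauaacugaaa
mmu-miR-542-5p: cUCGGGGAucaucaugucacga
mmu-miR-450a-5p: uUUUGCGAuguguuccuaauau
mmu-miR-450b-5p: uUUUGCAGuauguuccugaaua
The relatives from elsewhere in the genome that share a seed with miR-322-5p or miR-351-5p are shown for comparison.
mmu-miR-16-5p: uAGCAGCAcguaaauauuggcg
mmu-miR-15b-5p: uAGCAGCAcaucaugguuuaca
mmu-miR-125a-5p: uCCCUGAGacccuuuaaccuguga
mmu-miR-125b-5p: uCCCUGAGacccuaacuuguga
miR-322-5p has the whole seed of miR-15a, miR-15b, miR-16 and miR-195a. miR-503-5p shares only bases 2 to 7 with them and differs at base 8. miR-351-5p has the whole seed of miR-125a and miR-125b. The seeds of miR-450a-5p and miR-450b-5p share their first bases but are not the same.

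The 10 arms come from 7 hairpins on the minus strand, since miR-450a-5p can come from either of 2 hairpins. In RefSeq coordinates of GRCm38.p6 the hairpins span chrX:53047997-53054349, which is 6353 nt. Mir322 is the most 5′ in the direction of transcription, at chrX:53054255-53054349. Mir503 starts 295 nt downstream of its start, at chrX:53053984-53054054, and Mir351 starts 996 nt downstream, at chrX:53053255-53053353. These 3 hairpins lie inside the annotated long non-coding RNA gene C430049B03Rik. Mir542 follows at chrX:53049403-53049487, 4862 nt downstream of the start of Mir322. The miR-450 hairpins are last, with Mir450-2, Mir450-1 and Mir450b starting 5982, 6105 and 6271 nt downstream. The E10.5 table also marks rows that share reads, and each of the 10 arms stood alone there.

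Values at E10.5 are RPM, read counts scaled to the size of the library, as deposited. Depth, recovered from the size of the smallest steps between values, was 802750 and 493220 reads in the motoneuron libraries, against 777490 and 538630 in the GFP-negative libraries. At E12.5 it was 3603560 reads in the motoneuron, 4605440 in the V2a and 4270060 in the V3 library. The sort was looked at through miR-218-5p, the most abundant of the 3 listed motoneuron markers. It had 177885 and 200305 RPM in motoneurons, against 6623 and 7315 RPM in GFP-negative cells. At E12.5 it had 104198 TPM, the length-corrected counterpart of RPM, in motoneurons, against 7558 in V2a and 7282 in V3. The marker lists were chosen with earlier results of these libraries known, so this is not an independent check of the sort. None of the marker miRNAs listed for this work defines V2a or V3 cells, so those labels could not be checked here.

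At E10.5 the cluster was lower in motoneurons than in GFP-negative cells. The summed level of the 10 arms was 1740 and 1484 RPM in the motoneuron libraries, against 6207 and 7274 RPM in the GFP-negative libraries. The means were 1612 ± 181 RPM in motoneurons and 6741 ± 754 RPM in GFP-negative cells (SD, n = 2 each), which puts the GFP-negative mean 4.18-fold above the motoneuron mean. The limma model was fitted on log2(RPM + 1), with p-values adjusted by the Benjamini-Hochberg method over all 492 miRNAs that reached 15.2 RPM, 10 reads' worth at median depth, in 2 or more libraries. Of the 10 arms, 8 were tested, 8 fell and 0 rose at an adjusted p under 0.05. Over all tested miRNAs, 30.7% fell and 11.6% rose. The median log2 fold change of the tested arms was -2.23, against -0.34 over all tested miRNAs. miR-351-3p passed the filter only through the GFP-negative libraries, so it could hardly have come out otherwise. The 7 arms that passed it in all 4 libraries had a median of -2.22, and among the 385 miRNAs of that kind the median was -0.27 and 29.1% fell. Both motoneuron libraries lay below both GFP-negative libraries for 9 of 10 arms, the exception being miR-542-5p. Among tested miRNAs the same held for all 8 arms, miR-351-3p included, and for 48.6% of the 492. In whole sorted populations fewer cells that make a miRNA and less of it per cell cannot be told apart.

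**Figure D1:**
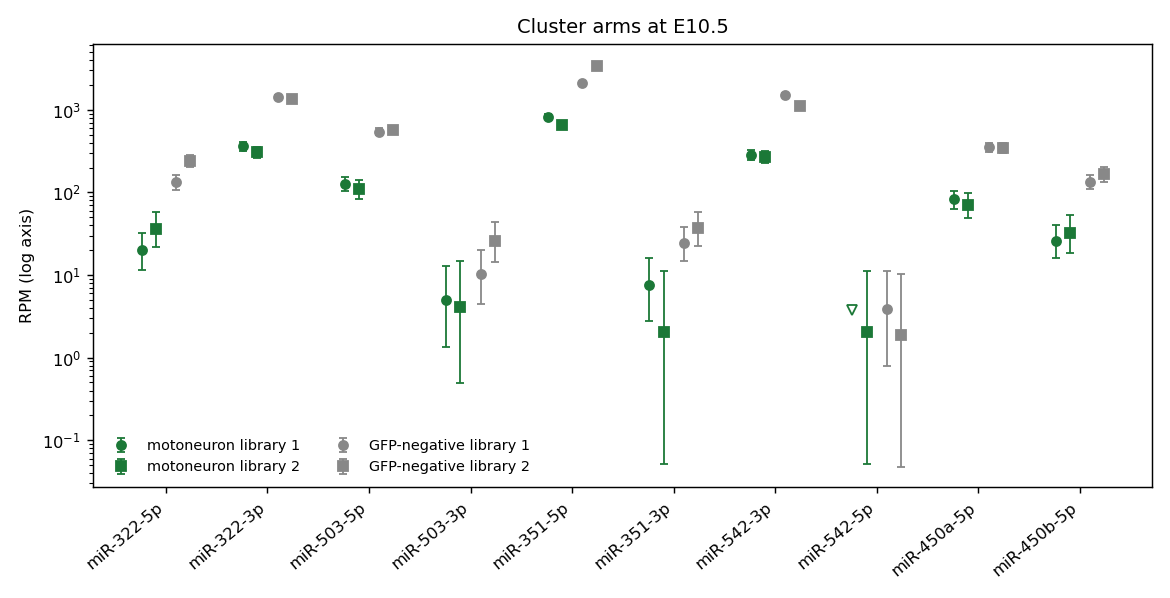
Level of each of the 10 cluster arms at E10.5 in RPM on a log axis, in the 2 motoneuron libraries (green) and the 2 GFP-negative libraries (grey). Bars are exact Poisson 95% intervals of the read count, and an open triangle marks a library with 0 reads at its 3-read limit. For every arm but miR-542-5p both green points sit below both grey points, and the 3 highest arms are miR-351-5p, miR-322-3p and miR-542-3p.

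The arms with the core seed of the miR-15/16 family come first. miR-503-5p, the main product of its hairpin, had 127 and 109 RPM in motoneurons, against 543 and 572 RPM in GFP-negative cells. The libraries of each group lay close together and the groups were well apart. The log2 fold change was -2.23 (SE 0.22), with a limma adjusted p of 0.000555. miR-322-5p was lower and more uneven, with 19.9 and 36.5 RPM in motoneurons, against 132 and 241 RPM in GFP-negative cells. In each group the second library was the higher, and the groups still did not overlap. The value of -2.68 in log2 (SE 0.44, limma adjusted p = 0.00363) was the most negative estimate among the tested arms, with the second-largest error.

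The partner arms of these hairpins carry unrelated seeds. miR-322-3p was the second most abundant arm in motoneurons, at 361 and 306 RPM, against 1425 and 1368 RPM in GFP-negative cells. The GFP-negative libraries lay within counting error of each other, and the arm fell by 2.07 on the log2 scale (SE 0.19, limma adjusted p = 0.000521). miR-503-3p was near the limit of detection in motoneurons, with 4.98 and 4.05 RPM, against 10.3 and 26.0 RPM in GFP-negative cells. It did not reach the filter and was not tested. With 4 and 2 reads in the motoneuron libraries, its size of difference is poorly fixed.

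miR-351-5p, which shares the miR-125 seed, was the most abundant arm in all 4 libraries. It had 826 and 653 RPM in motoneurons, against 2082 and 3407 RPM in GFP-negative cells. The GFP-negative libraries differed from each other by more than counting error, with 95% intervals of 1982 to 2186 RPM and 3253 to 3566 RPM, yet both were far above the motoneuron libraries. The log2 fold change was -1.86 (SE 0.27, limma adjusted p = 0.00210), the least negative among the tested arms. Its partner miR-351-3p had 7.47 and 2.03 RPM in motoneurons, against 24.4 and 37.1 RPM in GFP-negative cells. That is 6 and 1 reads against 19 and 20 reads, and the log2 fold change of -2.62 has the largest error of the cluster (SE 0.60, limma adjusted p = 0.0125). The value was -3.36 without the first motoneuron library, -1.88 without the second and -1.47 with a pseudocount of 10. It was not tested when the filter was raised 3 times or when either GFP-negative library was left out.

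miR-542-3p, the survivin-repressing arm, had 285 and 268 RPM in motoneurons, against 1502 and 1112 RPM in GFP-negative cells. The motoneuron libraries matched within counting error while the first GFP-negative library was the higher of its pair. The log2 fold change was -2.22 (SE 0.22), with a limma adjusted p of 0.000555. miR-542-5p was barely seen at all, at 0 and 2.03 RPM in motoneurons, against 3.86 and 1.86 RPM in GFP-negative cells. These are 0 and 1 reads against 3 and 1 reads, so the groups overlapped and no difference was detectable at this depth.

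The miR-450 hairpins lie farthest downstream. miR-450a-5p had 82.2 and 71.0 RPM in motoneurons, against 350 and 343 RPM in GFP-negative cells. limma gave -2.17 on the log2 scale (SE 0.25, adjusted p = 0.000850). miR-450b-5p had 26.2 and 32.4 RPM in motoneurons, against 134 and 165 RPM in GFP-negative cells. limma gave -2.31 on the log2 scale (SE 0.32, adjusted p = 0.00183). Both arms kept their groups apart, with replicates that differed far less than the groups did. The 3p arms of these hairpins are not among the 10 arms. miR-450b-3p had 16.2 and 14.2 RPM in motoneurons, against 86.2 and 111 RPM in GFP-negative cells, and fell by 2.61 on the log2 scale (SE 0.35, limma adjusted p = 0.00176). miR-450a-1-3p had 3.74 and 0 RPM in motoneurons, against 10.3 and 7.43 RPM in GFP-negative cells, and was not tested. miR-450a-2-3p had 0 reads in all 4 libraries.

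**Figure D2:**
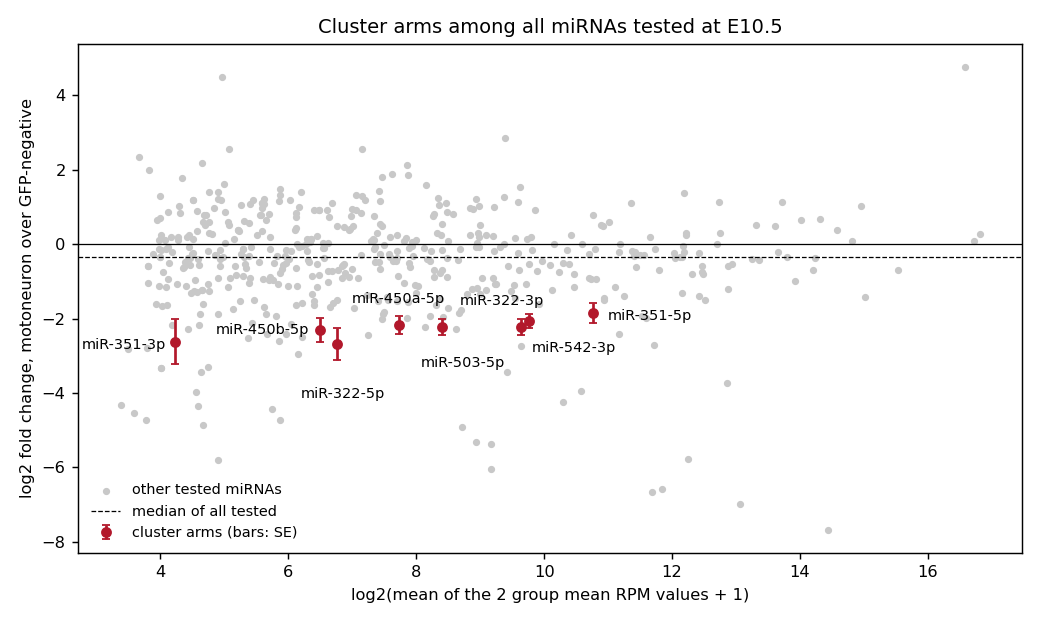
Log2 fold change, motoneuron over GFP-negative, against mean level for the 492 miRNAs tested at E10.5, with the 8 tested cluster arms in red (bars: SE), the others in grey and the median of all tested as a dashed line at -0.34. The red points lie in a band between -1.86 and -2.68 across the levels of the arms, which stop well below the highest levels tested. Other miRNAs lie both within this band and below it.

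Across the tested arms the log2 fold changes spanned -2.68 to -1.86. After quantile normalization they spanned -2.34 to -1.04, with miR-351-5p at -1.04 (limma adjusted p = 0.0372). The fold between group means, GFP-negative over motoneuron, ranged from 3.71 to 6.63. Scaling bears on the size of these values. The median log2 fold change of all tested miRNAs was -0.34 in RPM, -0.06 after median-of-ratios scaling, -0.07 after trimmed-mean (TMM) scaling, 0.05 with the 5 most abundant miRNAs left out of the totals and 0.15 after quantile normalization. The split of all calls moved with it, to 57 higher and 151 lower in RPM, 85 and 117 by median of ratios, and 114 and 100 by quantile normalization. Under each of these scalings the 8 arms tested in RPM remained called and lower. miR-503-3p was also tested with the 5 most abundant miRNAs left out of the totals, and was not called.

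Markers of other cell types moved with the same comparison. Over all tested miRNAs, as given above, 30.7% fell and 11.6% rose. The 10 mesenchymal marker miRNAs (miR-199, miR-214, miR-143 and miR-145 arms) summed to 1571 and 424 RPM in motoneurons, against 81413 and 94290 RPM in GFP-negative cells. All 10 fell, but miR-143-5p, miR-145a-5p and miR-145a-3p passed the filter only through the GFP-negative libraries, so their fall was nearly fixed in advance. miR-199a-3p and miR-199b-3p had equal levels in each E12.5 library, so they may not be separate RNAs in this count. The muscle markers summed to 355 and 130 RPM in motoneurons, against 4192 and 3796 RPM in GFP-negative cells, and 3 of 3 tested fell. Of these, miR-133b-3p also passed the filter only through the GFP-negative libraries. Sensory markers summed to 1971 and 2325 RPM in motoneurons, against 9171 and 9535 RPM in GFP-negative cells, and also fell in 3 of 3. The endothelial sum was 508 and 295 RPM in motoneurons, against 977 and 676 RPM in GFP-negative cells, with 1 of 1 tested lower. Epithelial markers summed to 53.6 and 89.2 RPM in motoneurons, against 170 and 342 RPM in GFP-negative cells, with 1 of 3 lower, and the blood markers did not reach the filter. General neuronal markers summed to 28508 and 35209 RPM in motoneurons, against 26811 and 22540 RPM in GFP-negative cells, with 3 of 9 higher. miR-145a-3p was at 0 in both motoneuron libraries, and miR-143-5p was at 0 in the second. Set against the mesenchymal sum, the cluster sum was 1.11 and 3.50 times as high in motoneurons, against 0.0762 and 0.0771 times in GFP-negative cells. Set against the muscle sum it was 4.90 and 11.4 times as high in motoneurons, against 1.48 and 1.92 times in GFP-negative cells. Set against the endothelial sum the order was the other way, with 3.42 and 5.03 times in motoneurons, against 6.35 and 10.8 times in GFP-negative cells. What part these other cells have in the difference of the cluster was not tested.

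The tested relatives that share the seeds but lie elsewhere in the genome had log2 fold changes nearer to 0. miR-16-5p had 310 and 264 RPM in motoneurons, against 809 and 657 RPM in GFP-negative cells. limma gave -1.35 on the log2 scale (SE 0.22, adjusted p = 0.00346). Its row shares reads with miR-195a-5p, so the 2 cannot be told apart fully. miR-15b-5p had 101 and 87.2 RPM in motoneurons, against 175 and 176 RPM in GFP-negative cells. limma gave -0.90 on the log2 scale (SE 0.26, adjusted p = 0.0308). That call is weak, since the adjusted p was 0.0544 to 0.0925 when any one library was left out, 0.102 by median of ratios and 0.101 by TMM. miR-15a-5p had a limma adjusted p of 0.0669, which was 0.0464 without the second motoneuron library. Of the 4 relatives of miR-322-5p found by name, 3 were tested and 2 fell. miR-195a-5p did not reach the filter, with 2.49 and 4.05 RPM in motoneurons, against 10.31 and 14.85 RPM in GFP-negative cells. Its GFP-negative mean was 3.85-fold its motoneuron mean, which is within the range of the tested arms. It rests on 2 and 2 reads against 8 and 8 reads. Neither miR-125a-5p (log2 fold change -0.32, limma adjusted p = 0.274) nor miR-125b-5p (-0.20, limma adjusted p = 0.457) passed the test, although miR-125a-5p did so, lower in motoneurons, without the first GFP-negative library (-0.61, limma adjusted p = 0.0296). The difference between an arm and its relatives was not itself tested.

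The part of each shared seed that the cluster supplied also differed. Per unit of length, miR-322-5p and miR-503-5p together made 25.0% and 27.4% in motoneurons of a pool of 6 that also holds miR-15a-5p, miR-15b-5p, miR-16-5p and miR-195a-5p, against 38.6% and 47.3% in GFP-negative cells. miR-351-5p made 10.2% and 8.69% of the pool it forms with miR-125a-5p and miR-125b-5p in motoneurons, against 23.1% and 25.4% in GFP-negative cells. Other miRNAs with these core seeds (miR-195b, miR-6342, miR-6353 and miR-6419 for the first pool, miR-6367 and miR-6394 for the second) were left out of the pools. Both shares were lower in both motoneuron libraries, and in every library most of each pool came from outside the cluster. Such shares do not depend on the scaling of a library.

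At E12.5 no library had a replicate, so values are given with no test. The deposited values were rescaled to TPM, and intervals are exact Poisson 95% intervals that cover counting error only. The 10 arms summed to 447 TPM in motoneurons, 327 TPM in V2a cells and 368 TPM in V3 cells, from 1619, 1482 and 1585 reads. The motoneuron sum was 1.37 times that of V2a cells and 1.21 times that of V3 cells, and the V2a sum was 0.889 times that of V3 cells. These ratios depend on scaling. With the 5 most abundant miRNAs left out of the totals, the motoneuron sum lay below both interneuron sums. An order of the 3 populations by the whole cluster therefore cannot be given.

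**Figure D3:**
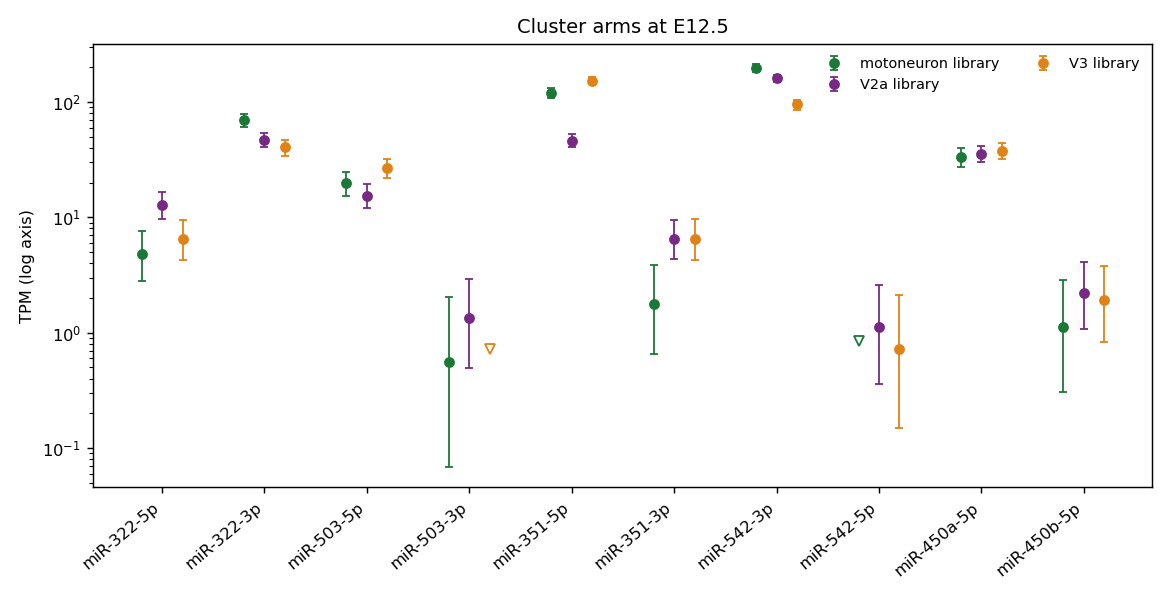
Level of each of the 10 cluster arms at E12.5 in TPM on a log axis, in the single motoneuron (green), V2a (purple) and V3 (orange) libraries, with exact Poisson 95% intervals and open triangles for libraries with 0 reads, drawn at their 3-read limit. miR-351-5p is lowest in V2a cells, miR-542-3p falls off across motoneuron, V2a and V3 cells, and miR-450a-5p is nearly level.

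The single arms differed between the 3 populations in different directions. An arm was counted where the ratio of (TPM + 1) was at least 2-fold, and 7 of 10 arms reached 2.40 TPM, the worth of 10 reads, in at least 1 library. Of all 1007 miRNAs that did, motoneurons had 16.1% higher and 28.1% lower than V2a cells, and 28.5% higher and 14.8% lower than V3 cells. V2a cells had 32.4% higher and 9.93% lower than V3 cells. Set against V2a cells, motoneurons had 1 arm higher and 2 arms lower. Set against V3 cells, they had 1 arm higher and 1 arm lower. miR-351-3p is a lower arm in both of these counts, and it reached the 2.40 TPM level only in V2a and V3 cells, so it was considered only through the cells in which it is high. In V2a cells 0 arms were above and 1 arm was below the V3 level by that margin. The median log2 ratio over the considered arms was 0.30 for motoneuron over V2a, against -0.31 over all considered miRNAs. For motoneuron over V3 it was -0.35, against 0.24, and for V2a over V3 it was -0.00, against 0.52. With only 7 arms considered, nothing is read from these counts for the cluster as a whole.

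miR-351-5p separated the V2a library from the others. It had 120 TPM in motoneurons, 46.3 TPM in V2a cells and 153 TPM in V3 cells, from 464, 227 and 693 reads. The ratio of motoneuron to V2a was 2.59 (95% interval 2.20 to 3.04), and that of V2a to V3 was 0.303 (0.260 to 0.353). With the 5 most abundant miRNAs out of the totals, the log2 ratio of (TPM + 1), motoneuron over V2a, was 0.72 instead of 1.35 and no longer reached 2-fold. The V2a to V3 difference reached 2-fold under each scaling tried. miR-351-3p ran the other way in motoneurons, with 1.77 TPM there, 6.52 TPM in V2a cells and 6.55 TPM in V3 cells. It rests on 6, 28 and 26 reads and fell short of 2-fold with a pseudocount of 10.

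miR-542-3p was the most abundant arm in the motoneuron and V2a libraries. It had 197 TPM in motoneurons, 160 TPM in V2a cells and 94.97 TPM in V3 cells, where miR-351-5p was above it. The ratio of motoneuron to V3 was 2.08 (95% interval 1.83 to 2.36). On the log2 scale of (TPM + 1) this was 1.05, and it was 0.81 by median of ratios and 0.22 with the 5 most abundant miRNAs out of the totals, so the 2-fold call holds only for some scalings. miR-542-5p had 0 reads in motoneurons, a level of at most 0.844 TPM by the 3-read limit, 1.11 TPM in V2a cells and 0.721 TPM in V3 cells.

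The arms with the miR-15/16 core were low at this stage. miR-503-5p had 19.6 TPM in motoneurons, 15.3 TPM in V2a cells and 26.7 TPM in V3 cells. All pairs were within 2-fold in TPM, but the log2 ratio of motoneuron over V3 was -1.26 without the 5 most abundant miRNAs, and that of V2a over V3 was -1.23 by median of ratios. miR-322-5p had 4.78 TPM in motoneurons, 12.7 TPM in V2a cells and 6.49 TPM in V3 cells, from 17, 57 and 27 reads. The V2a library was the highest, with a motoneuron to V2a ratio of 0.377 (95% interval 0.206 to 0.658), although a pseudocount of 10 took this difference under 2-fold. miR-322-3p had 69.1 TPM in motoneurons, 46.6 TPM in V2a cells and 40.3 TPM in V3 cells, so in TPM the arms of one hairpin had opposite orders between motoneurons and V2a cells. Without the 5 most abundant miRNAs the log2 ratio of miR-322-3p, motoneuron over V2a, was -0.08 and both arms were lower in motoneurons. miR-503-3p had 2, 6 and 0 reads in motoneurons, V2a cells and V3 cells.

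In TPM, miR-450a-5p was not 2-fold different in any pair. miR-450b-5p reached the 2.40 TPM level in no library, so it was left out of the counts whatever its ratios. miR-450a-5p had 33.2 TPM in motoneurons, 35.4 TPM in V2a cells and 37.7 TPM in V3 cells. It was the most even arm that had over 100 reads in each library, although with the 5 most abundant miRNAs out of the totals its log2 ratio of motoneuron over V3 was -1.01. miR-450b-5p had 1.13, 2.22 and 1.92 TPM in motoneurons, V2a cells and V3 cells, from 4, 10 and 8 reads. Of the other arms, miR-450b-3p had 2.53 TPM in motoneurons, 0.445 TPM in V2a cells and 0 in V3 cells, miR-450a-1-3p had 0.563, 0 and 2.89 TPM in that order, and miR-450a-2-3p had 0, 0 and 1.92 TPM. These rest on 9, 2 and 0 reads for miR-450b-3p, whose (TPM + 1) value in motoneurons was 2.44-fold that in V2a cells and 3.53-fold that in V3 cells. For miR-450a-1-3p they rest on 2, 0 and 12 reads. Its value in V3 cells was 2.49-fold that in motoneurons and 3.89-fold that in V2a cells. miR-450b-3p reached the 2.40 TPM level only in motoneurons and miR-450a-1-3p only in V3 cells, so each passed it only where it is high.

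Marker levels differed between the E12.5 libraries as well. The mesenchymal sum was 199 TPM in motoneurons, 249 TPM in V2a cells and 310 TPM in V3 cells, and the muscle sum was 126, 221 and 63.0 TPM in that order. miR-199a-3p and miR-199b-3p had the same values (17.0, 13.5 and 41.1 TPM in that order), so the mesenchymal sum may count the same reads more than once. miR-145a-5p and miR-145a-3p were both at 0 in motoneurons, miR-143-5p was at 0 in V2a cells and miR-145a-3p was at 0 in V3 cells. The neuronal sum was 87801 TPM in motoneurons, 85751 TPM in V2a cells and 166849 TPM in V3 cells. The endothelial sum was 177, 405 and 174 TPM, the epithelial sum 19.5, 7.47 and 3.61 TPM and the sensory sum 108, 181 and 193 TPM, in the same order. V2a cells had the highest muscle and endothelial sums, and V3 cells the highest neuronal sum. Most of the V2a muscle sum was miR-206-3p (175 TPM), and miR-133a-3p was also highest there. miR-1a-3p was highest in motoneurons (118 TPM, against 41.2 TPM in V2a cells), and miR-133b-3p was at 0 in V2a cells. Most of the V3 neuronal sum was miR-9-5p (160334 TPM), and miR-9-3p and miR-153-3p were also highest there. In contrast, miR-124-3p, miR-124-5p, miR-128-3p and miR-137-3p were lowest in V3 cells. The cluster sum was 2.24, 1.31 and 1.19 times the mesenchymal sum in motoneurons, V2a cells and V3 cells. In that order it was 2.52, 0.807 and 2.11 times the endothelial sum and 3.55, 1.48 and 5.84 times the muscle sum. Motoneurons thus had the highest ratio to the mesenchymal and endothelial sums, and V3 cells the highest to the muscle sum. What part the cells with these markers have in the differences between arms was not tested. Among the seed relatives, miR-125b-5p had 15094 TPM in motoneurons, 5695 TPM in V2a cells and 4356 TPM in V3 cells, and miR-351-5p made 0.554%, 0.439% and 1.66% of its seed pool in that order. miR-322-5p and miR-503-5p together made 26.2%, 24.4% and 31.8% of theirs.

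**Figure D4:**
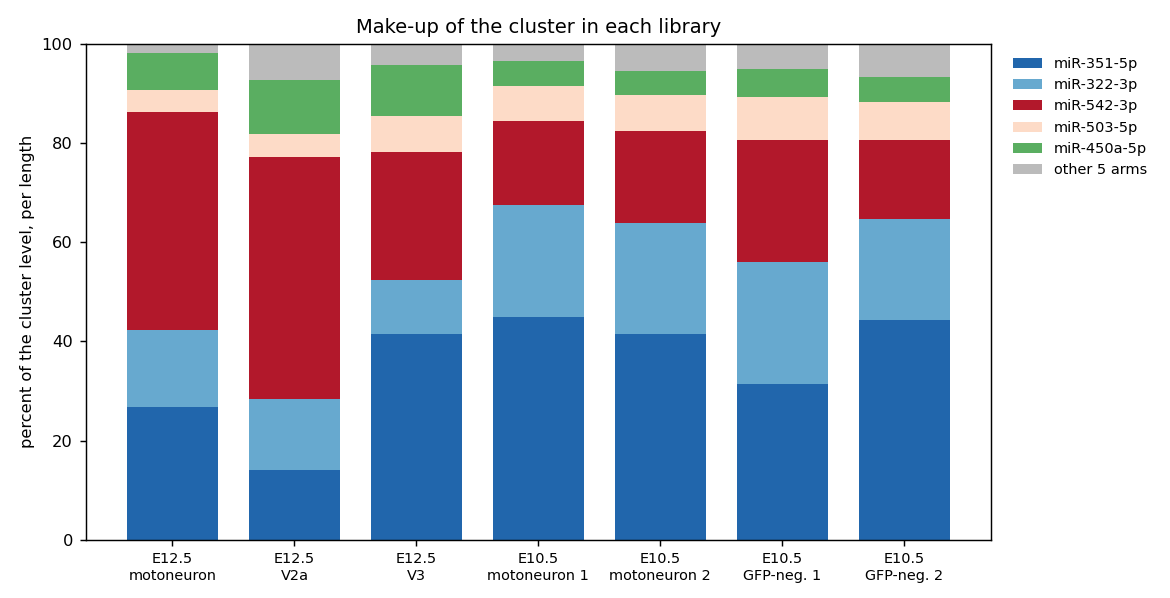
Share of the summed level of the 10 arms, each level divided by mature length, in each of the 7 libraries. miR-351-5p (dark blue), miR-322-3p (light blue) and miR-542-3p (red) together fill 77.2% to 86.3% of the bar in every library, with miR-351-5p ahead of miR-542-3p in the V3 library and all 4 E10.5 libraries and behind it in the E12.5 motoneuron and V2a libraries.

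The make-up of the cluster can be read within a library, whatever its scaling. Mature lengths of the arms run only from 21 to 24 nt, and levels are compared here per unit of length. miR-351-5p, miR-322-3p and miR-542-3p together made 86.3% of the cluster level in motoneurons, 77.2% in V2a cells and 78.2% in V3 cells at E12.5, and 80.6% to 84.4% in the E10.5 libraries. The balance among the 3 differed. The ratio of miR-351-5p to miR-542-3p was 0.607 (95% interval 0.538 to 0.683) in E12.5 motoneurons, 0.290 (0.249 to 0.337) in V2a cells and 1.61 (1.42 to 1.82) in V3 cells. These 3 intervals do not overlap. At E10.5 the ratio was 2.65 (2.28 to 3.10) and 2.24 (1.82 to 2.76) in motoneurons, against 1.27 (1.18 to 1.37) and 2.81 (2.56 to 3.08) in GFP-negative cells. The GFP-negative replicates thus stood further apart than either was from motoneurons, and the intervals, which cover counting error only, understate the spread between libraries. In the first GFP-negative library miR-351-5p was 31.4% and miR-542-3p 24.7% of the cluster, and in the second they were 44.4% and 15.8%. In E12.5 motoneurons miR-542-3p made 44.1% and miR-351-5p 26.8%, whereas in E10.5 motoneurons miR-542-3p made 16.9% and 18.6% and miR-351-5p 44.97% and 41.6%. The stages were deposited in separately scaled tables, each stage has its own libraries, and no test was made between them.

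**Figure D5:**
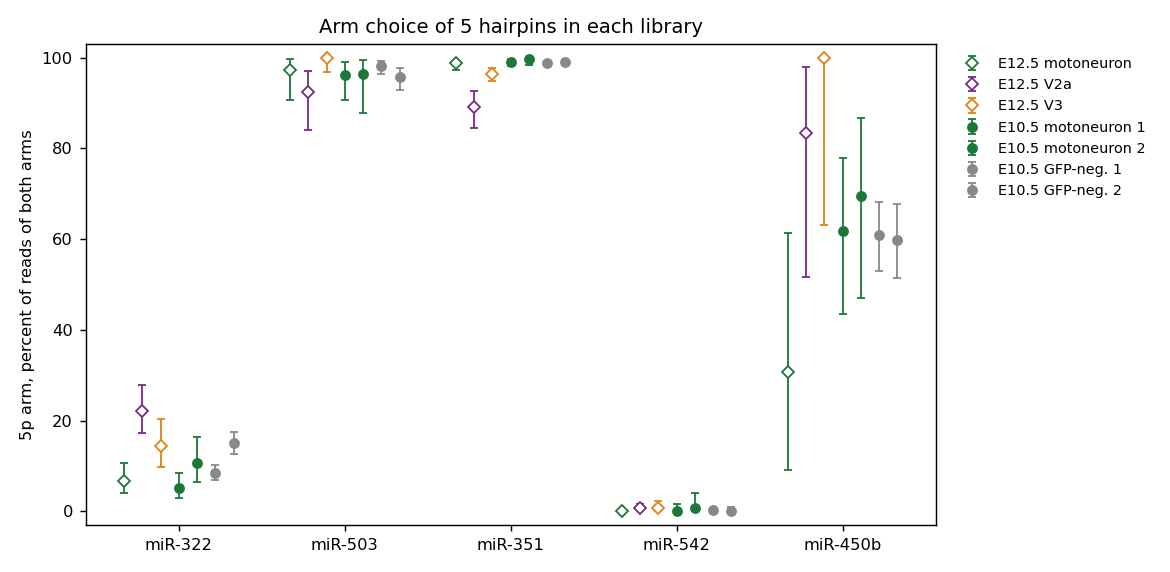
The 5p arm as a percent of the reads of both arms, for 5 hairpins in the 3 libraries at E12.5 (open) and the 4 at E10.5 (filled), with exact Clopper-Pearson 95% intervals. miR-322 and miR-542 are mainly 3p and miR-503 and miR-351 mainly 5p in every library, and the wide bars of miR-450b at E12.5 come from 8 to 13 reads.

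The arm that accumulated was the same in every library for 4 of the 5 hairpins with both arms measured. For miR-322 it was the 3p arm, which does not carry the miR-15/16 core. The 5p arm made 6.77% (exact Clopper-Pearson 95% interval 3.99 to 10.6) of miR-322 reads in E12.5 motoneurons, 22.2% (17.3 to 27.8) in V2a cells and 14.4% (9.74 to 20.3) in V3 cells. At E10.5 it made 5.23% and 10.7% in motoneurons, against 8.51% and 14.99% in GFP-negative cells, and these groups overlapped. miR-542 likewise came almost wholly from its 3p arm, at 99.2% to 100% of reads. miR-503 was 92.3% to 100% 5p. miR-351 was 98.8% to 99.7% 5p at E10.5, and at E12.5 its 3p arm made 1.28% (0.47 to 2.76) in motoneurons, 11.0% (7.42 to 15.5) in V2a cells and 3.62% (2.38 to 5.25) in V3 cells. The V2a library thus had the highest share of the minor arm for both miR-322 and miR-351. With 1 library of V2a cells this has no replicate check. miR-450b gave both arms at E10.5, with 61.8% and 69.6% 5p in motoneurons, against 60.8% and 59.7% in GFP-negative cells. At E12.5 it had 13 reads in motoneurons, 12 in V2a cells and 8 in V3 cells, too few to place its share.

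The profile of single arms over the 7 libraries was compared with that of the cluster sum by the root mean square difference of log2(level + 1) profiles, each centred within its table. The nearest arms were miR-322-3p (0.156), miR-450a-5p (0.174) and miR-503-5p (0.216). miR-542-3p (0.324), miR-450b-5p (0.335) and miR-351-5p (0.439) were further off. The low arms miR-503-3p (0.497), miR-322-5p (0.611), miR-351-3p (0.692) and miR-542-5p (0.786) were the furthest. The sum contains each arm, and the abundant arms weigh on it most. Among 442 miRNAs outside the cluster, the nearest to the sum were miR-362-5p (0.224), miR-27a-3p (0.232, a row that shares reads with another), miR-455-3p (0.245), miR-148a-5p (0.246) and miR-493-3p (0.264). Their distances were smaller than those of miR-542-3p and miR-351-5p. They are, however, the smallest among 442 and were picked by this same distance, so nothing is read from that order.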

How the data were processed

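Small RNA libraries were made from sorted cells, and per the submitters' processing notes reads were aligned with Bowtie2. Build, counter and version were not stated there. At E10.5 the authors deposited RPM per miRNA. At E12.5 the deposited values were read from their column sums as FPKM, and were rescaled here to TPM. No test or ratio was made across the separately scaled tables.

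The 10 members, the seed relatives and the marker lists were chosen with earlier results of these data known. Named miRNAs are all members, those lists and the 5 non-members nearest to the cluster sum.

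At E10.5, limma 3.58.1 (R 4.3.3, empirical Bayes with a trend, two-sided) was run on log2(RPM + 1) for 492 miRNAs with at least 15.2 RPM in 2 libraries. Fold changes are on this scale and understate the change of low miRNAs. At E12.5, with 1 library per group, a 2-fold ratio of (TPM + 1) was used with no test. Reads per miRNA were recovered from the steps between low values (within 0.05 of a whole number for 40 of 40 member values at E10.5 and 29 of 30 at E12.5). Intervals and the 3-read limit rest on these reads and cover counting error only, since reads are not independent molecules. Over all rows only 89.3% to 91.5% of low E10.5 values came out whole, so no count-based test was run. At E12.5, over rows with a known mature length, only 72.9% to 79.3% did, so depths, reads and intervals at that stage are less certain. Sequences and positions are from RefSeq tables of GRCm38.p6.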

Additional observations from a re-analysis of the deposited data

How the results depend on the processing

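Of the 10 arms at E10.5, 7 to 8 were called lower and 0 higher under every alternative: pseudocounts of 10 and 0.1, no filter or 3 times the filter, median of ratios, TMM, totals without the 5 most abundant miRNAs or without mesenchymal and muscle markers, quantile normalization, bundled rows summed, each library left out, and the replicate block. miR-503-3p (limma adjusted p = 0.190) and miR-542-5p (0.578) were tested with all rows kept, and miR-503-3p also without the top 5 (0.126), with no call. The same-numbered libraries had correlated deviations (0.261), but with 2 pairs and no label to tie them they were not taken as pairs; with the block 8 arms fell, and over all miRNAs 162 fell and 67 rose, against 151 and 57 without it. The summed E10.5 log2 ratio was -2.06 in RPM, -1.78 by median of ratios, -1.79 by TMM and -1.68 without the top 5. miR-125b-5p turned positive by median of ratios (0.078), TMM (0.074), without the top 5 (0.18), by quantile normalization (0.44) and without GFP-negative replicate 2 (over single libraries left out, it ran between -0.45 and 0.047), and miR-125a-5p without the top 5 (0.056) and by quantile normalization (0.43); none of these positive values was called. At E12.5 the summed log2 ratio of motoneuron over V2a was 0.45, but 0.70 by median of ratios and -0.20 without the top 5. Motoneuron over V3 gave 0.28, but 0.040 and -0.56, and V2a over V3 gave -0.17, but -0.66 and -0.36. The count of arms past 2-fold, 3 for motoneuron over V2a, was 1 with a pseudocount of 10, 0 at 4-fold, 2, all lower, without the top 5 and 4 with all rows kept. For motoneuron over V3 it was 2, but 1 by median of ratios, 5, all lower, without the top 5, 0 with a pseudocount of 10 and 0 at 4-fold. For V2a over V3 it was 1, but 2 by median of ratios, 2 with all rows kept and 0 at 4-fold. The construction of each alternative sets these shifts in scale; no other cause was tested. Dividing RPM by mature length, an alternative chosen after seeing the data, moved E10.5 arm shares by at most 0.583 percentage points. Depth limits miR-503-3p, miR-351-3p, miR-542-5p and, at E12.5, miR-450b-5p.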
